A study of Homo sapiens with 8 samples.

Results

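The genes described here are 33 interferon-stimulated genes with known or proposed antiviral roles that lie outside the OAS, IFIT, IFITM, MX, GBP, TRIM, PARP and ISG15 families. They were picked out by a list of symbols, drawn up with earlier results of these data known, and all 33 were found among the 26372 gene symbols of the deposited table. RNA was sequenced from BE(2)-M17 cells (labelled M17), an established human neuroblastoma line, in 4 untreated libraries and 4 libraries from cells given interferon-γ (IFN-γ) at 10 ng/ml for 24 h. The growth protocol names another line, SH-SY5Y, as well, but each of the 8 libraries is labelled M17. No transgene, knockdown or other agent is labelled in either group, and nothing in the labels tells whether the libraries are from different cultures. The p-values therefore speak only of variation among these libraries, part or all of which may be technical. Values are FPKM (sequenced fragments scaled by transcript length and by library size), given as mean ± SD of 4 libraries with the untreated group first. Changes are differences of log2(FPKM + 0.1) with their standard error (SE), which understate the change of low genes, and p-values are from limma with Benjamini-Hochberg adjustment over the 13598 genes whose mean FPKM in the 8 libraries was 0.5 or more. A gene is said to have risen when its adjusted p was under 0.05.

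IFN-γ binds its receptor on the cell surface, and the receptor-bound kinases JAK1 and JAK2 pass the signal to factors that bind the gamma-activated site (GAS) of promoters. The type I interferons signal through another receptor to a complex with STAT2 and IRF9 in it, which binds the interferon-stimulated response element (ISRE). Factors of the IRF family, IRF1 among them, bind related letters, so a gene with an ISRE can respond to IFN-γ as well. The genes of this set act at many steps of viral growth: some sense or cleave RNA, some starve polymerases of nucleotides, and others change membranes, mitochondria or protein turnover.

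The promoter sequence of these genes was read first. Its GAS and ISRE letters were not used in choosing the genes. But the genes were chosen as known interferon-stimulated genes, so the motif shares are not independent of that choice and are only described. RefSeq windows from 250 bases before to 50 bases after a transcript start (GRCh38.p14) were given for 32 of the 33 genes, TRAFD1 being the one without, and 45 windows in all, since some genes have several starts. They were searched on both strands for the GAS-type motif TTCNNNGAA, which reads the same on either strand, and the ISRE-type motif GAAANNGAA. Matches of the 2 motifs may overlap. An ISRE-type match stood in a window of 20 of the 32 genes (62.5%), against 9.86% of all 27305 genes with a window. By window it stood in 24 of the 45 (53.3%), against 8.11% of all 35116 windows. A GAS-type match stood in a window of 7 genes (21.9%), against 9.38% of all genes, and in 9 windows (20%), against 7.66% of all windows. Both stood in 7 of the 45 windows (15.6%), against 0.948% of all windows. These windows belong to 5 genes, DDX60, EPSTI1, IFI27, NMI and PLSCR1, and windows of one gene can overlap. A match is a string of letters, and binding was not measured.

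The 250 bases before the start are shown for 6 genes: IFI27 and DDX60, whose RNA rose by a large factor and which hold both motifs; IFI6 and RTP4, which have 3 ISRE-type matches each; EPSTI1, which holds both motifs and stayed near 0; and N4BP1, which holds neither and did not pass the test. Capitals mark the matched letters, and each sequence is written 5′ to 3′ on the strand of its gene.
IFI27: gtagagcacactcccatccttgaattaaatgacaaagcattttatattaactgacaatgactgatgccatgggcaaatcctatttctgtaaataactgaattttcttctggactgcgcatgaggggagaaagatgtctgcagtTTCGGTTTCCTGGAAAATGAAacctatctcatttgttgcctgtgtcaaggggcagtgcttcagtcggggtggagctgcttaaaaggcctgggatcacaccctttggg
DDX60: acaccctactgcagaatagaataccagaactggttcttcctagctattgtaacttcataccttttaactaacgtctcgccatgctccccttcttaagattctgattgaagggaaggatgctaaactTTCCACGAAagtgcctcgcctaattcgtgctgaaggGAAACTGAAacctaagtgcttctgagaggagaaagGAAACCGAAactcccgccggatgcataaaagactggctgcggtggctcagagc
IFI6: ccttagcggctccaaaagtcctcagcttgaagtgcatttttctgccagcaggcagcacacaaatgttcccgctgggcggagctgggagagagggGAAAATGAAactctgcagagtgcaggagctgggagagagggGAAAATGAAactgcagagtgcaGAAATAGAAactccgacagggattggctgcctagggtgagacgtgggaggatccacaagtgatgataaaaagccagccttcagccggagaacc
RTP4: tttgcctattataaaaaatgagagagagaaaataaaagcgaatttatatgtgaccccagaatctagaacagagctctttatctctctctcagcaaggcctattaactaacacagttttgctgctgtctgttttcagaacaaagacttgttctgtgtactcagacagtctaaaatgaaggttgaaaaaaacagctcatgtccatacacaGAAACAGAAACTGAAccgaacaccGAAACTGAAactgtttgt
EPSTI1: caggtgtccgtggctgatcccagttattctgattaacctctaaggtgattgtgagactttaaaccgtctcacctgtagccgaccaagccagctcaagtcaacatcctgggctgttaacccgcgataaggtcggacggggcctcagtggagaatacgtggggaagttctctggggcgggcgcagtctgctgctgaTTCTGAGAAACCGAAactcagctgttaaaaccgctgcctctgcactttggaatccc
N4BP1: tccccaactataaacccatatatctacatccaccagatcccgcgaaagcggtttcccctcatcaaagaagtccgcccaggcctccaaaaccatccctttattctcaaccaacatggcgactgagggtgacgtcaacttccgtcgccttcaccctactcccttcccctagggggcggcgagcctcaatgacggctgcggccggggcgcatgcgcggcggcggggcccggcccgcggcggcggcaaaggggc
The IFI27 window lies at chr14:94110486-94110735 on the forward strand, DDX60 at chr4:168318753-168319002 on the reverse strand, IFI6 at chr1:27672193-27672442 on the reverse strand, RTP4 at chr3:187368135-187368384 on the forward strand, EPSTI1 at chr13:42992242-42992491 on the reverse strand and N4BP1 at chr16:48610181-48610430 on the reverse strand. In IFI27 the GAS-type match overlaps an ISRE-type match on each side, in a stretch that begins 107 bases before the start. In EPSTI1 the GAS-type match begins 56 bases before the start and runs into an ISRE-type match. The matches of DDX60 stand apart, the GAS-type one at 124 bases and the ISRE-type ones at 88 and 53 bases before the start.

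Of the 33 genes, 32 were tested, 31 rose with IFN-γ, none fell (the fit across all genes by limma also gave none at an unadjusted p under 0.05), and N4BP1 did not pass the test. Among all genes tested, 13.3% rose and 9.05% fell, 22.3% in all, and with quantile normalization, under which the balance over all genes turned from 1809 rises and 1230 falls to 1470 and 2564, the same 31 genes rose. The members' median log2 change was 2.99, against -0.0047 over all genes tested. XAF1 and RTP4 were listed at 0 in all untreated libraries, and the median is the same for any change of theirs above it. No overlap between the 8 values of the groups was seen in 31 genes, with IFN-γ above, where 15.4% of all genes tested showed this and 28.2% had groups apart in either direction. The filter bears on this count: 11 genes had an untreated mean under 0.5 FPKM, and the 10 of them that were tested entered only through their values with IFN-γ, so they had to differ. Of the 22 genes with an untreated mean of at least 0.5 FPKM, 21 rose (background 12.3%), and 16 of these rose at least 2-fold (background 1.75%). The summed level of all 33 genes was 336 to 341 FPKM in the untreated libraries and 1495.1 to 1624.5 with IFN-γ. In bulk RNA, more cells responding and more RNA per cell cannot be told apart.

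**Figure D1:**
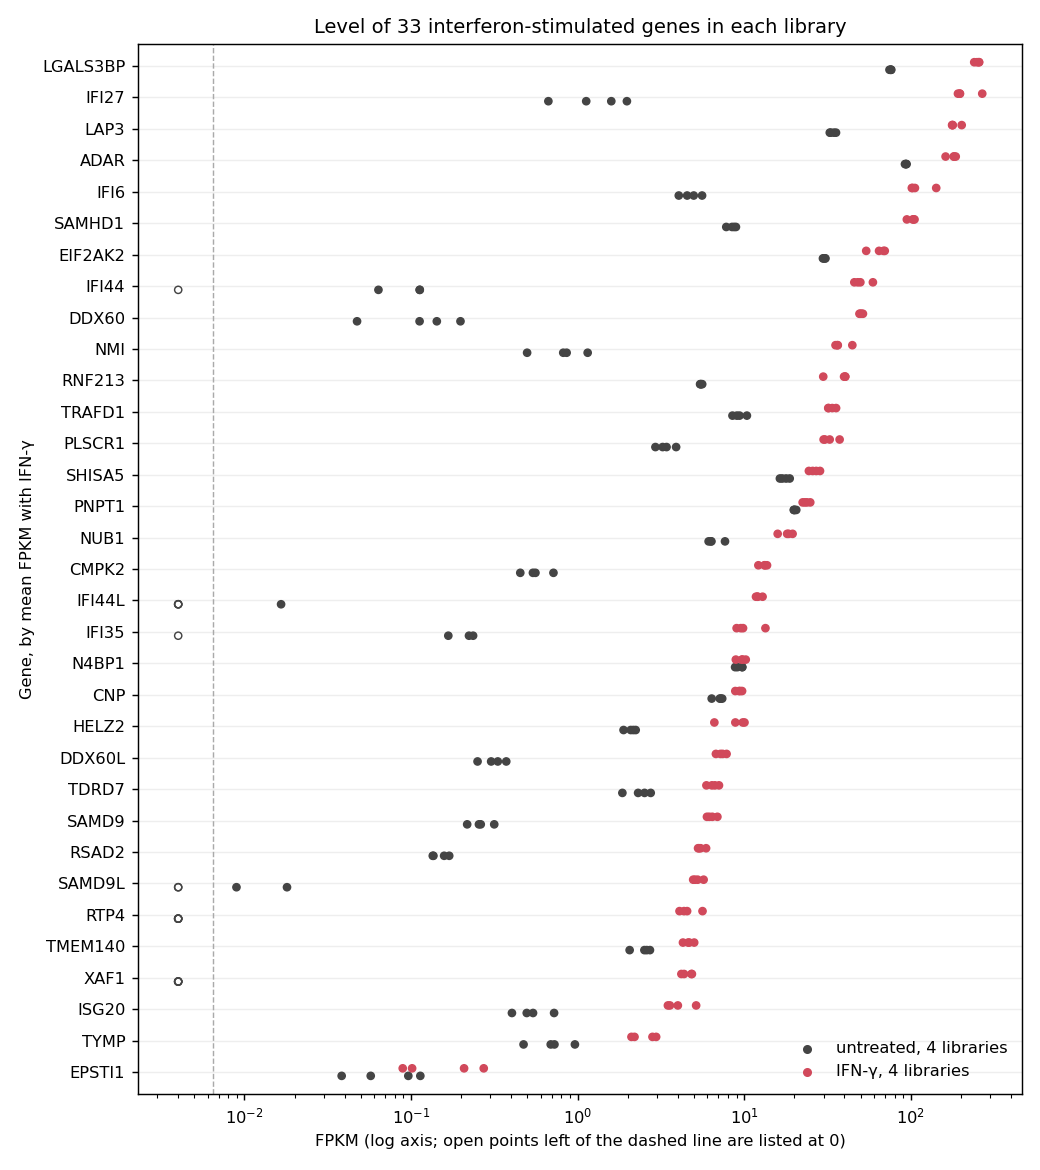
FPKM of the 33 genes in each of the 8 libraries on a log axis, ordered by mean FPKM with IFN-γ, with grey points untreated, red points IFN-γ and open points left of the dashed line for libraries listed at 0. The 2 groups overlap only in N4BP1 and EPSTI1.

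Genes that sense, edit or cut RNA ranged from a very large rise to no detected change. DDX60, a helicase of the RIG-I branch of RNA sensing, measured 0.0474, 0.113, 0.143 and 0.198 FPKM untreated, and 50.8, 51.7, 49.2 and 49.8 with IFN-γ. The treated libraries formed a narrow band far above the untreated ones (log2 change 7.85, SE 0.18). DDX60, like DDX60L below, passed the filter only through its values with IFN-γ and had to differ. DDX60L, its neighbour and relative, was at 0.373, 0.251, 0.332 and 0.303 untreated and at 7.43, 7.84, 7.21 and 6.77 with IFN-γ (log2 change 4.17, SE 0.12). The genes lie 37.9 kb apart on the reverse strand of chromosome 4, DDX60 from 168216293 to 168318807 and DDX60L from 168356735 to 168537786 (GENCODE release 29, GRCh38). DDX60L was the higher of the pair in each untreated library and the lower in each treated one. The difference of log2 values, DDX60L minus DDX60, went from 0.92 ± 0.54 to -2.77 ± 0.07, a shift of -3.69 (exact two-sided permutation test over 70 arrangements, p = 0.0286, the smallest it can give; adjusted p = 0.0429 over 6 gene pairs), and it was -2.85 and -4.18 with pseudocounts of 1 and 0.01. Fragments of related genes may be divided between them, and PALLD overlaps DDX60L on the other strand at 4.29 and 4.57 FPKM.

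EIF2AK2 (PKR), the kinase that stops translation on sensing double-stranded RNA, was expressed before treatment and rose from 30.3 ± 0.476 to 64.3 ± 7.19 FPKM (log2 change 1.08, SE 0.07). ADAR, which edits adenosine to inosine in double-stranded RNA, was the highest member untreated and rose from 93.6 ± 0.869 to 178 ± 10.8 FPKM (log2 change 0.92, SE 0.05). ADAR is known to make a constitutive short and an interferon-inducible long protein from different promoters, and one value per gene does not separate their transcripts. ISG20, an RNA exonuclease, rose from 0.540 ± 0.134 to 4.06 ± 0.763 FPKM. PNPT1, a mitochondrial exoribonuclease, had the smallest rise of the set, from 20.1 ± 0.305 to 23.6 ± 1.06 FPKM (log2 change 0.23, SE 0.04, limma adjusted p = 0.00301). It missed the threshold on rescaling to a common library sum (TPM) without short RNA genes (log2 change 0.14, limma adjusted p = 0.0765).

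N4BP1, an RNase that restricts some viruses, was at 9.75, 8.83, 9.11 and 9.72 FPKM untreated and at 10.2, 9.71, 9.76 and 8.92 with IFN-γ. The groups overlapped, and the log2 change of 0.044 (SE 0.06) had a limma adjusted p of 0.637. On rescaling all genes to TPM, which alone moves the median of all genes by 0.79, it passed at 0.84, close to that shift. SAMD9 and SAMD9L, neighbours on chromosome 7 whose products restrain translation and poxviruses, both started near 0. Both passed the filter only through their values with IFN-γ and had to differ. SAMD9 was at 0.217, 0.262, 0.256 and 0.316 FPKM untreated and at 6.91, 6.18, 5.98 and 6.44 with IFN-γ (log2 change 4.16, SE 0.12). SAMD9L was at 0.0180, 0, 0 and 0.00895 untreated and at 5.71, 5.26, 5.07 and 4.94 with IFN-γ. SAMD9L was the lower of the pair in each of the 8 libraries, by a small margin with IFN-γ. The shift of their log2 difference was 1.48 (exact permutation p = 0.0286, adjusted p = 0.0429 over the pairs), but 0.086 with a pseudocount of 1 (adjusted p = 0.0571) and 3.87 with 0.01 (adjusted p = 0.0429), so whether they changed unequally depends on how values near 0 are handled. HELZ2, a helicase and nuclear receptor coactivator, rose from 2.09 ± 0.149 to 8.84 ± 1.56 FPKM.

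Of the members, 4 act on nucleotides (RSAD2, CMPK2, SAMHD1 and TYMP), and all 4 rose (background 13.3%). RSAD2 passed the filter only through its values with IFN-γ and had to differ. RSAD2 (viperin), which makes a chain-terminating analog of CTP, was at 0.170, 0.158, 0.136 and 0.135 FPKM untreated and at 5.91, 5.48, 5.29 and 5.36 with IFN-γ (log2 change 4.49, SE 0.12). CMPK2, a mitochondrial nucleotide kinase, was at 0.539, 0.453, 0.716 and 0.558 untreated and at 13.4, 13.2, 12.2 and 13.7 with IFN-γ (log2 change 4.32, SE 0.12). In each of the 8 libraries CMPK2 was the higher of the pair. The genes stand head to head on chromosome 2, RSAD2 from 6865806 to 6898239 on the forward strand and CMPK2 from 6840570 to 6866635 on the reverse strand, so their first parts overlap. The same ISRE-type match, at 6865806 to 6865814, lies 79 bases before a RefSeq start of RSAD2 and at base 6 of a transcript of CMPK2. The shift of their log2 difference was -0.17 (exact permutation p = 0.4, adjusted p = 0.48), but 0.67 with a pseudocount of 1 (adjusted p = 0.0343) and -0.59 with 0.01 (adjusted p = 0.0429), so the direction of any difference in their changes depends on the pseudocount.

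SAMHD1, which degrades the dNTPs that reverse transcription and DNA viruses need, rose from 8.48 ± 0.484 to 102 ± 4.74 FPKM (log2 change 3.57, SE 0.05, limma adjusted p = 9.6e-12). TLDC2, on the other strand, overlaps its end and went from 0.230 to 3.17 FPKM; the library kit does not mark strand, so reads of the overlap cannot be assigned. TYMP, the thymidine phosphorylase, rose from 0.713 ± 0.201 to 2.52 ± 0.432 FPKM (log2 change 1.71, SE 0.20). It overlaps SCO2, which was at 9.23 and 10.7 FPKM. Of 19 other tested enzymes and transporters of pyrimidine and dNTP metabolism, 1 rose and 2 fell (background 13.3% and 9.05%). Their median log2 change was 0.027. The nucleoside transporter SLC29A1 fell from 38.1 ± 1.14 to 31.0 ± 2.34 FPKM and RRM1, the large subunit of ribonucleotide reductase, from 34.8 ± 1.03 to 30.4 ± 0.764. In TPM both changes were positive (0.51 and 0.61) and neither passed. Both lay below 0.79, the shift of the median of all genes in TPM. The one that rose, CMPK1, the cytosolic relative of CMPK2, went from 34.0 ± 1.57 to 38.8 ± 2.99 (limma adjusted p = 0.0441, and above 0.05 without any one of the libraries except IFN-γ replicates 2 and 4).

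The 5 members with IFI symbols, named for their induction by interferon, and NMI and XAF1 all rose (background 13.3%). IFI35, IFI44, IFI44L and XAF1 passed the filter only through their values with IFN-γ and had to differ. IFI27, a small mitochondrial membrane protein, was at 0.668, 1.13, 1.59 and 1.98 FPKM untreated and at 192, 198, 197 and 269 with IFN-γ (log2 change 7.30, SE 0.26). It moved from rank 18 of the 33 by untreated level to rank 2 with IFN-γ. IFI6, of the same protein family, was at 4.98, 4.05, 4.55 and 5.59 untreated and at 106, 102, 103 and 142 with IFN-γ (log2 change 4.53, SE 0.12). IFI6 was the higher of the 2 in each untreated library and IFI27 in each treated one. The shift of their log2 difference, IFI27 minus IFI6, was 2.77 (exact permutation p = 0.0286, adjusted p = 0.0429 over the pairs), and it was 2.25 and 2.85 with pseudocounts of 1 and 0.01. The relatives IFI27L1 and IFI27L2, beside IFI27 on chromosome 14, did not pass the test (log2 change 0.37 and 0.28).

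IFI44 and IFI44L, neighbours on chromosome 1 whose products slow the growth of some viruses, rose from almost nothing. IFI44 was at 0.113, 0.0637, 0 and 0.113 FPKM untreated and at 49.9, 48.1, 45.9 and 59.3 with IFN-γ. IFI44L was listed at 0 in 3 untreated libraries and at 0.0166 in the other, and reached 12.9, 12.1, 11.8 and 12.003. IFI44 was thus the higher of the pair in each treated library. Whether the changes differ could not be told, since the shift of the log2 difference was -1.38 (adjusted p = 0.0429 over the pairs by the exact permutation test) but 0.13 with a pseudocount of 0.01.

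IFI35 and NMI, whose proteins bind each other, both rose. IFI35 was at 0.223, 0.236, 0 and 0.167 FPKM untreated and at 9.85, 9.55, 9.01 and 13.4 with IFN-γ. NMI was at 0.860, 1.15, 0.820 and 0.498 untreated and at 36.5, 36.3, 35.4 and 44.6 with IFN-γ (log2 change 5.40, SE 0.19). NMI was the higher in all 8 libraries, and the shift of the log2 difference was 0.087 (exact permutation p = 0.943), but -1.13 with a pseudocount of 1 (adjusted p = 0.0343) and 1.13 with 0.01, so it too depends on the pseudocount. Without untreated replicate 3, where IFI35 was listed at 0, it was -0.33. XAF1, a pro-apoptotic partner of the caspase inhibitor XIAP, was listed at 0 in every untreated library. With IFN-γ it reached 4.82, 4.86, 4.20 and 4.36 FPKM. XIAP itself went from 11.02 ± 0.412 to 13.8 ± 2.01 (limma adjusted p = 0.0462, above 0.05 on leaving out any one library but IFN-γ replicate 4).

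Secreted, membrane and protein-turnover genes included LGALS3BP and LAP3, at rank 1 and rank 3 of the members by mean FPKM with IFN-γ. LGALS3BP, a secreted glycoprotein that binds galectins, rose from 75.7 ± 0.799 to 251 ± 7.83 FPKM (log2 change 1.73, SE 0.04). LAP3, a leucine aminopeptidase, went from 34.0 ± 1.36 to 184 ± 12.2 (log2 change 2.43, SE 0.05). PLSCR1, a phospholipid scramblase, rose from 3.38 ± 0.407 to 32.6 ± 3.39. RTP4, a chaperone of membrane receptors that also restricts flaviviruses, was also listed at 0 in every untreated library. With IFN-γ it reached 4.35, 4.55, 4.09 and 5.62 FPKM. RTP4 passed the filter only through these values and had to differ. RNF213, a very large ubiquitin ligase, rose from 5.51 ± 0.0689 to 37.6 ± 5.20, and TRAFD1, a zinc finger protein that dampens innate signalling, from 9.33 ± 0.792 to 33.4 ± 1.71. NUB1, which lowers the ubiquitin-like protein NEDD8, rose from 6.62 ± 0.714 to 18.0 ± 1.53 FPKM, while the gene NEDD8 did not pass the test (log2 change 0.048).

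Smaller rises were seen in TDRD7, a Tudor-domain protein, from 2.36 ± 0.380 to 6.52 ± 0.474 FPKM, TMEM140 from 2.47 ± 0.292 to 4.65 ± 0.296, and SHISA5, a membrane protein linked to apoptosis, from 17.5 ± 1.04 to 26.5 ± 1.75. CNP, a phosphodiesterase best known from myelin, rose from 7.04 ± 0.445 to 9.34 ± 0.365 FPKM (log2 change 0.40, SE 0.06). Its end overlaps DNAJC7 on the other strand, at 54.5 and 59.0 FPKM. EPSTI1 was the exception at the low end. It was at 0.0383, 0.114, 0.0963 and 0.0573 FPKM untreated and at 0.102, 0.0891, 0.208 and 0.273 with IFN-γ. The groups overlapped, all values were below the filter, and by its longest transcript and the estimated depth they stand for about 2.88 to 25.7 fragments a library; without the filter limma gave a log2 change of 0.57 and an adjusted p of 0.197. No change was called at these low values.

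**Figure D2:**
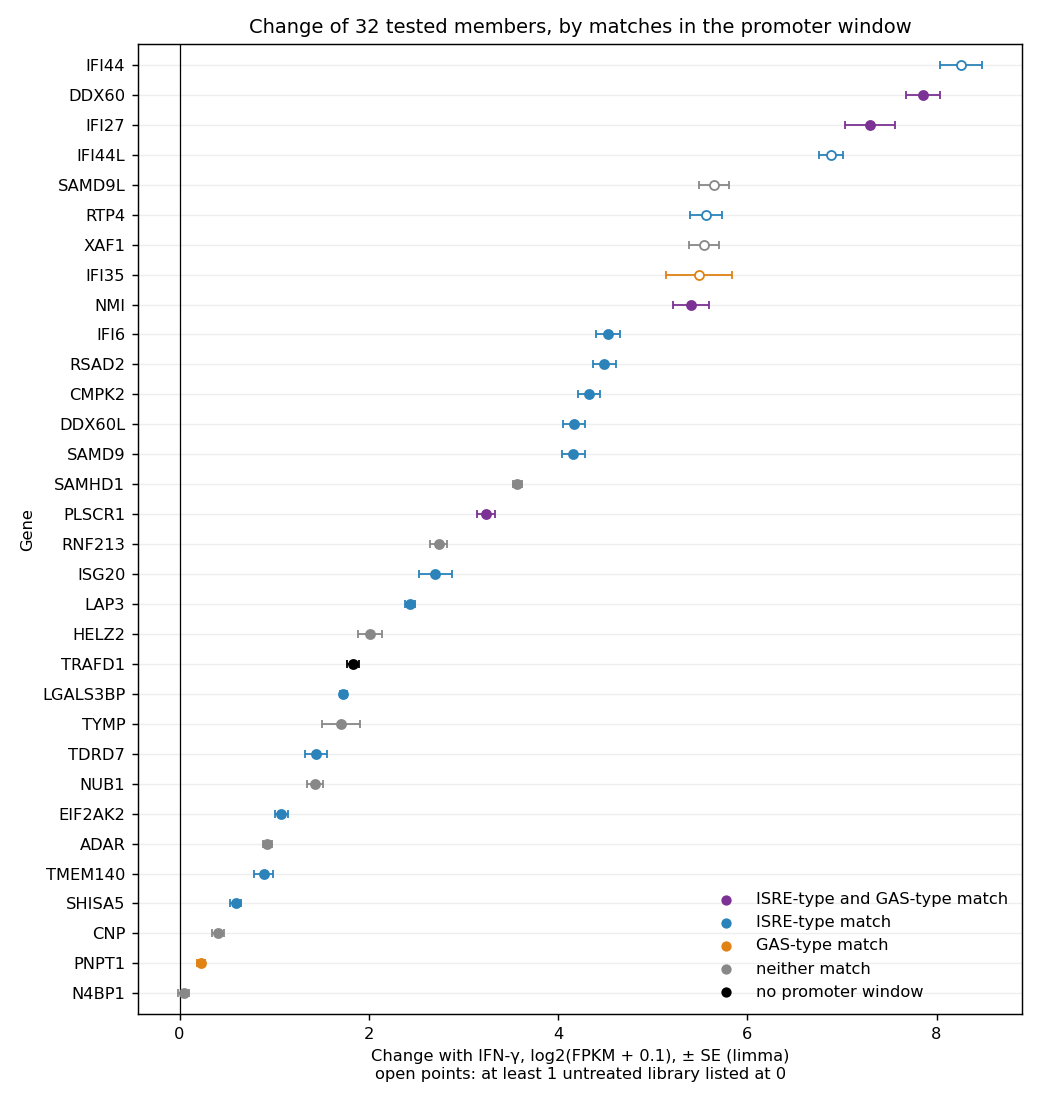
Change of the 32 tested genes with IFN-γ on the log2(FPKM + 0.1) scale, with bars for the SE from limma and colours for the motif matches in any promoter window of the gene. Open points have at least 1 untreated library listed at 0, so their place depends on the pseudocount. Of the 14 genes at 4 or above, 11 have an ISRE-type match, and 10 passed the filter only through their values with IFN-γ.

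The size of the change varied with the untreated level. The 5 genes with an untreated mean of at least 20 FPKM (ADAR, LGALS3BP, LAP3, EIF2AK2 and PNPT1) changed by 0.23 to 2.43 on the log2 scale, and the 10 genes at 0.5 to 5 FPKM by 0.89 to 7.30. Since the untreated level enters the change, this is a description of the set. With IFN-γ the order of levels was led by LGALS3BP, IFI27, LAP3 and ADAR, whose neighbours in the order overlapped in range, followed after a gap by IFI6 and SAMHD1. These last 2 overlapped as well, and EIF2AK2 lay below both in every library. TYMP and EPSTI1 were the lowest, each below the next gene without overlap. Among all genes tested, 14 members were in the 100 largest rises and 26 members rose at least 2-fold (background 2.84%). Of the 14, 10 passed the filter only through their values with IFN-γ and had to rise, which leaves IFI27, NMI, IFI6 and CMPK2, and the same 10 are among the 26.

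**Figure D3:**
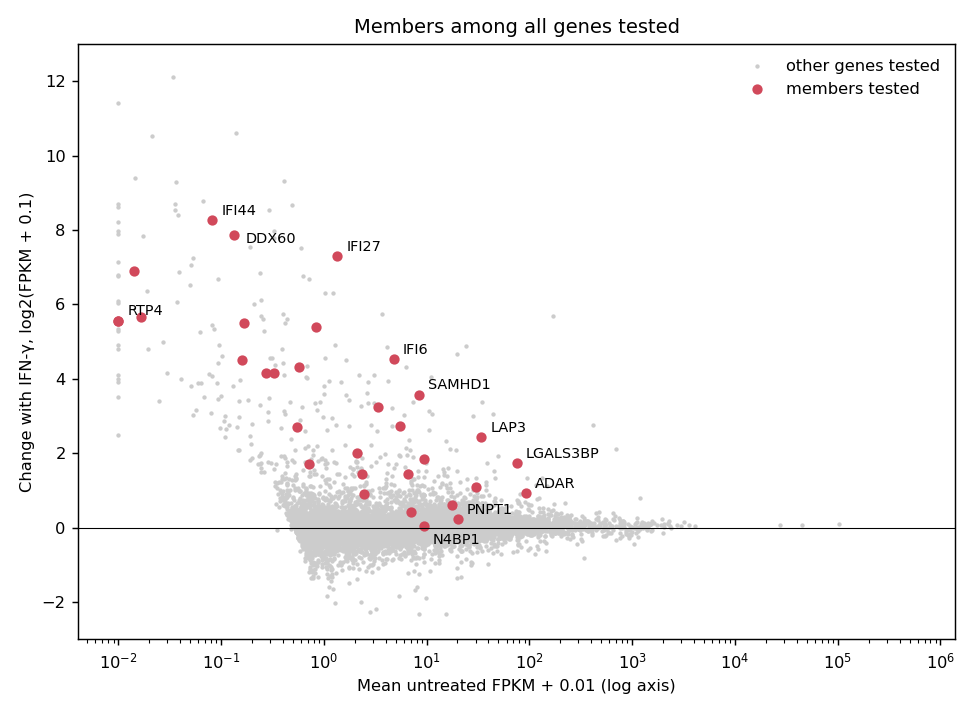
Change with IFN-γ, log2(FPKM + 0.1), against the mean untreated FPKM + 0.01 on a log axis for all genes tested (grey) and the 32 tested members (red), with 4 genes outside the plotted range of -3 to 13. The members lie at or above 0, IFI44 and DDX60 at low untreated levels near the top and ADAR and PNPT1 at high ones near the axis.

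Set beside the motifs, the 19 tested genes with an ISRE-type match had a median log2 change of 4.17 and a range of 0.59 to 8.26, and the 12 without had a median of 1.86 and a range of 0.044 to 5.65. Of 14 genes with a log2 change of at least 4, 10 passed the filter only through IFN-γ values and had to rise. These 10 also enter the medians above. An ISRE-type match was held by 11 of the 14. Of the remaining ones, SAMD9L and XAF1 held neither motif, and IFI35 held the GAS-type motif alone, 22 bases before its start. Of the 6 tested genes that changed by less than 1, TMEM140 and SHISA5 held an ISRE-type match. The highest of these values, IFI44 and SAMD9L, rest on the pseudocount of 0.1. The ranges overlap widely, no test was made of them, and letters outside these windows were not searched.

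The upstream genes of the response were read from a list of 16 receptors, kinases and transcription factors. Of these, 13 rose and none fell (background 13.3% and 9.05%), with a median log2 change of 0.91. IRF1 rose by 7.52 on the log2 scale, JAK2 by 3.43, and STAT2 and IRF9, which bind the ISRE in one complex, by 3.03 and 3.22. The 3 that did not pass were IFNGR1, IFNGR2 and TYK2. In TPM, which alone moves the median of all genes by 0.79, all 3 passed as higher. Of 21 interferon genes, 17 were listed at 0 in all 8 libraries, among them IFNG and IFNL1. IFNB1 was at no more than 0.0842 FPKM in any library and the 13 IFN-α genes at no more than 0.128. IFNK was at 0.673 ± 0.116 and 0.466 ± 0.207 FPKM and did not pass the test (log2 change -0.50, limma adjusted p = 0.203), but leaving out IFN-γ replicate 1 made it pass as lower (-0.73, limma adjusted p = 0.0412).

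A list of family relatives of the members, which also holds some binding partners such as XIAP and the galectins, was read in the same fit. Of its 25 tested genes, 4 rose and 1 fell (background 13.3% and 9.05%), with a median log2 change of -0.057. Each of the other eIF2α kinases EIF2AK1, EIF2AK3 and EIF2AK4 missed the threshold (log2 change -0.07, -0.06 and 0.08), as did HELZ (-0.09) and the ISG20 relatives AEN and ISG20L2 (-0.07 and -0.09). ADARB1, the other catalytically active editing enzyme, fell from 4.33 ± 0.311 to 3.26 ± 0.414 FPKM. In TPM, where the median of all genes moved by 0.79, its change was 0.38 and did not pass. LGALS1, a galectin, rose from 20.8 ± 2.56 to 30.7 ± 5.19 FPKM. TRAF6, an adaptor ligase, went from 2.47 ± 0.292 to 3.08 ± 0.0624 and lost its call without any one of the libraries except untreated replicates 3 and 4. Among 18 tested partners and substrates, such as the eIF2 subunits, 3 rose and none fell (background 13.3% and 9.05%). These were DNAJC3, an inhibitor of PKR, from 15.2 ± 0.730 to 17.4 ± 0.371, BIRC2 from 15.9 ± 1.13 to 18.7 ± 0.671, and DDIT3, a stress transcription factor, from 6.90 ± 0.719 to 8.60 ± 0.932, of which DDIT3 lost its call without any one of untreated replicates 1 to 3 or IFN-γ replicates 1, 2 or 4. None of these 3 passed in TPM without short RNA genes.

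Among the treated libraries, replicate 4 read these genes differently. Its values ran low for long transcripts and high for short ones. RNF213 was at 40.4, 40.5, 39.8 and 29.9 FPKM in the 4 treated libraries and HELZ2 at 9.81, 8.86, 10.0 and 6.63. Across the 32 tested members, the log2 ratio of replicate 4 to the mean of the other 3 had a Spearman rho of -0.76 with the longest annotated transcript, and across 12742 tested genes with a known length a rho of -0.40; the genes share these libraries, so both are descriptions. The median log2 ratio was 0.31 in the 13 members under 3000 nt, 0.0029 in the 10 from 3000 to 6000 nt and -0.15 in the 9 of at least 6000 nt. Without replicate 4 the same 31 genes rose, RNF213 by 2.85 in place of 2.74 on the log2 scale, HELZ2 by 2.14 in place of 2.01, EIF2AK2 by 1.16 in place of 1.08 and IFI6 by 4.41 in place of 4.53.

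**Figure D4:**
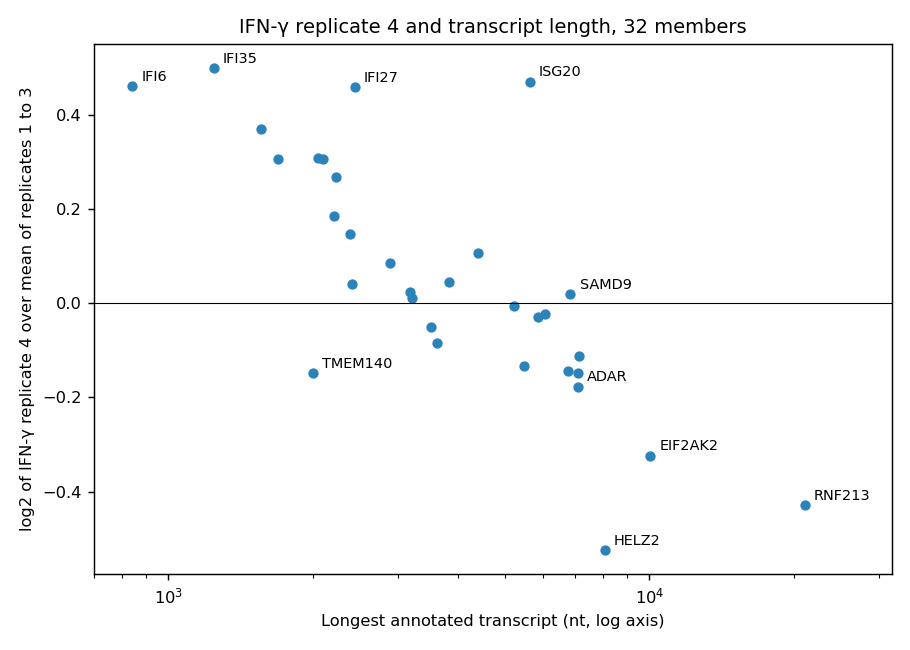
The log2 ratio of IFN-γ replicate 4 to the mean of IFN-γ replicates 1 to 3 against the longest annotated transcript in nt on a log axis, one point for each of the 32 tested members. RNF213, HELZ2 and EIF2AK2 lie lowest, IFI6 and IFI35 among the highest, and ISG20 and TMEM140 off the trend.

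Some facts of all 8 libraries bear on these values. Depth, estimated from the steps between low values, was such that 1 fragment on 1 kilobase was worth 0.0489 to 0.0712 FPKM. Of 14 neuroblastoma markers, 13 reached 1 FPKM in a library, with MYCN at 2003 ± 26.1 and 1817 ± 93.0 FPKM. Of 14 leukocyte markers, only CD8A reached 1 FPKM in any library, 4 were listed at 0 throughout, and their summed level was 1.96 to 2.49 FPKM untreated and 1.52 to 2.24 with IFN-γ. The mesenchymal markers summed to 228 to 234 FPKM untreated and 237 to 298 with IFN-γ, with 5 of 8 reaching 1 FPKM. DCN (140 ± 4.40 and 143 ± 22.3 FPKM) and THY1 made up most of the sum, PDGFRB rose from 8.20 ± 0.442 to 21.0 ± 1.52, LUM rose from 20.3 ± 0.923 to 32.5 ± 6.29, COL1A1 fell from 1.86 ± 0.0528 to 1.37 ± 0.170, and COL1A2 was at 0 untreated. Their part in the results was not tested. The Schwann cell and oligodendrocyte markers summed to 11.7 to 13.7 and 15.1 to 20.3 FPKM, with MOG and MAG at 0 in all libraries, 3 of 8 reaching 1 FPKM, and the endothelial and epithelial markers, 1 of 9 reaching it, to 2.79 to 3.39 and 2.74 to 3.70 FPKM. Of 12 reference genes, 4 rose (background 13.3%), led by B2M, the light chain of MHC class I. PGK1, a glycolytic enzyme, lost its call without untreated replicate 2.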

How the data were processed

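Human BE(2)-M17 neuroblastoma cells were profiled by RNA-seq in 4 untreated and 4 IFN-γ libraries. The deposited table gives 1 FPKM value per gene symbol and library, made by the authors with TopHat2, hg38 and Cuffdiff per the submitters' processing notes. The versions, options and gene annotation were not given in the sources used here. No counts were used, and depth was estimated from the steps between low FPKM values.

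The FPKM values were tested as log2(FPKM + 0.1) with limma 3.58.1 in R 4.3.3, with a mean-variance trend, on genes averaging 0.5 FPKM or more over the 8 libraries, with Benjamini-Hochberg adjustment over 13598 genes and a threshold of 0.05. The code was tested on simulated data. Of 26372 symbols, 6347 were at 0 throughout. Differences between paired genes were tested by exact permutation over 70 arrangements. Positions are from GENCODE release 29 and promoter windows from RefSeq (GRCh38.p14).

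The members and all lists were chosen with earlier results of these data known. Every member is named. Per-library values are given for the 12 called members with the largest log2 change, those not called, at 0 in a library or below the filter, and those of the gene pairs. Of other lists, up to 5 called genes with the largest change are named, except a few that are not reported here, and other genes named there were chosen after their values were seen. Alternatives covered pseudocounts, filters, scalings, limma options, a replicate block and leaving out each library.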

Additional observations from a re-analysis of the deposited data

Results flagged for a closer look

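In 7 of 64 groups of 4 libraries, 1 library lay so far from the others that its gap divided by the whole range was above the 95% critical value of Dixon's test for 4 values. Chance alone gives this in about 1 in 20 groups. Of these, 5 concerned the same library, IFN-γ replicate 4. It was the highest treated library for IFI27, at 269 FPKM against 192 to 198 (ratio 0.93), for IFI6, at 142 against 102 to 106 (0.891), for LAP3, at 202 against 177 to 179 (0.94), and for NMI, at 44.6 against 35.4 to 36.5 (0.879). It was the lowest for RNF213, at 29.9 FPKM against 39.8 to 40.5 (0.939). Over all 32 tested members this library was the highest treated one for 13 and the lowest for 9, and each of these genes except N4BP1 was called higher without it.

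The other 2 were in untreated libraries. NUB1 was at 7.68 FPKM in replicate 1 against 6.12 to 6.36 (ratio 0.844). IFI44L was at 0.0166 FPKM in replicate 2 and listed at 0 in the others, which gives the ratio 1 for any value above 0.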

How the results depend on the processing

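Over 19 alternatives, 30 to 32 members were called higher and 0 lower. All 31 were called under each alternative except TPM without short RNA genes, which lost PNPT1, and N4BP1 was added in TPM. Over all genes, leaving out 1 library gave 1484 to 2157 rises and 852 to 1698 falls. Without IFN-γ replicate 4, 2157 rose and 1698 fell. Quantile normalization gave 2564 falls. TPM gave 9536 rises and 19 falls, with the median of all genes up by 0.79, and SNORD3A made up 5.97% to 57.9% of the untreated FPKM sums and 0 with IFN-γ. TPM without short RNA genes gave 1201 rises and 1752 falls. In TPM, log2 changes turned positive for ADARB1 (0.38), SLC29A1 (0.51), RRM1 (0.61) and TYK2 (0.79), and of these only TYK2 passed.

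Among the gene pairs, a pseudocount of 1 gave 0.086 for SAMD9 and SAMD9L, 0.67 for RSAD2 and CMPK2 and -1.13 for NMI and IFI35, and 0.01 gave 0.13 for IFI44 and IFI44L and -0.59 for RSAD2 and CMPK2. Leaving out 1 library gave 1.43 to 1.60 for SAMD9 and SAMD9L, -1.52 to -1.15 for IFI44 and IFI44L, -3.85 to -3.43 for DDX60 and DDX60L, -0.27 to -0.040 for RSAD2 and CMPK2, 2.48 to 2.90 for IFI6 and IFI27, and -0.33 to 0.35 for NMI and IFI35. The calls of the first 3 of these pairs and of IFI6 and IFI27 held without any one library (exact permutation test, adjusted p = 0.0429 each time). Their p was already the smallest possible with all 8 libraries, so the groups stay apart without any one. That the calls held therefore says little about how firm they are. Log2 changes of genes at or near 0 untreated depend on the pseudocount, from 5.59 to 9.77 for IFI44.

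Deviations of same-numbered libraries correlated at -0.027 to 0.079, and those of differently numbered ones at -0.094 to 0.086. These weak values do not settle whether the libraries were paired. A fit with the replicate block called 31 members higher, with 1639 rises and 1017 falls over all genes. In that fit TRAF6 and XIAP lost their calls. EPSTI1 rests on few fragments.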
